A study of Mus musculus with 33 samples.

Results

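The genes described here are the potassium channel genes of the mouse, taken as the autosomal protein-coding genes of the mm9 GENCODE vM1 annotation whose name starts with Kcn. They are 93 gene entries with 91 different names, out of 21418 autosomal protein-coding genes. Kcnb2 and Kcnh8 each have a second gene model, which was counted on its own, and 1 further autosomal gene with such a name was left out by the selection rule. Chromatin immunoprecipitation sequencing (ChIP-seq) was done in wild-type (WT) E14 mouse embryonic stem cells (mESC) and in Uhrf1 knockout (KO) mESC, both received from another laboratory and grown in serum medium with leukemia inhibitory factor on gelatin or on plates coated with mouse embryonic fibroblasts. Whether the KO cells are 1 clone is not given in the sources used here. H3K4me3 and H3K27me3 were mapped in WT and KO mESC and in WT and KO embryoid bodies (EBs), which are cell aggregates started as hanging drops in serum medium, at weeks 1, 2 and 3. H3K9me3, Oct4, Sox2 and Nanog were mapped in WT and KO mESC, and Uhrf1 in WT mESC. Each genotype, stage and target had 1 library and 1 deposited list of regions, so differences below have no replicate check and are given without a test.

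Potassium channels let potassium leave or enter the cell and so set the resting membrane potential and end the action potential of neurons and heart muscle. The pore is made by voltage-gated subunits, by inward rectifiers of the Kcnj genes, by tandem pore leak channels of the Kcnk genes or by calcium-activated subunits, and it is tuned by accessory subunits such as those of the Kcnab, Kcne, Kcnip and Kcnmb genes. H3K4me3 marks the promoters of active or poised genes, H3K27me3 is laid down by Polycomb repressive complex 2, and promoters that carry both are called bivalent, a state known from developmental and neuronal genes with CpG-rich promoters in ESCs. Uhrf1 is a chromatin protein that is needed to copy DNA methylation, and the study asked how its loss affects these marks.

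A promoter was called marked with H3K4me3 where a deposited domain reached within 2 kb of the gene's start, and with H3K27me3, H3K9me3 or Uhrf1 where one reached within 5 kb. Bivalent promoters carried H3K4me3 and H3K27me3, active promoters H3K4me3 alone, repressive promoters H3K27me3 alone, and the rest no mark. The following promoters stand for the patterns described below, each as the 250 bases upstream of the annotated start on the gene's own strand in mm9, with CG, the site of DNA methylation, in capitals. Kcna1 (a voltage-gated channel of axons, chr6:126595820-126596069, minus strand) was the first by name that was bivalent in WT at all 4 stages and lost a mark in KO. The same rule asked for a member bivalent in every list and a member with no mark in any list, and there was none of either, so 3 others were chosen after their values were seen. Kcnc4 (a fast voltage-gated channel, chr3:107261817-107262066, minus strand) was bivalent at every WT stage and repressive at every KO stage. Kcnj8 (the pore of ATP-sensitive channels of vessels, chr6:142519877-142520126, minus strand) was bivalent in 7 of 8 library pairs, and Kcnip2 (an accessory subunit of the cardiac transient outward current, chr19:45890552-45890801, minus strand) was active in all 8.
Kcna1: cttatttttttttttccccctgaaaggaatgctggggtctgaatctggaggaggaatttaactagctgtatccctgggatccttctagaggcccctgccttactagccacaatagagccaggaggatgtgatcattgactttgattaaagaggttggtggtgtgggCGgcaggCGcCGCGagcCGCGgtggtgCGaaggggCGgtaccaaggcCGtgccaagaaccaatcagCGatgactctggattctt
Kcnc4: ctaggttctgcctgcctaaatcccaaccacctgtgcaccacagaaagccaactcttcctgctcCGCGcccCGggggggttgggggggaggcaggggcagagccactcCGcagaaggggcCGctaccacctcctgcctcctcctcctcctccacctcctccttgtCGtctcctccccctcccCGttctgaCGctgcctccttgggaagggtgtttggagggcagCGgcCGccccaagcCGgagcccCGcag
Kcnj8: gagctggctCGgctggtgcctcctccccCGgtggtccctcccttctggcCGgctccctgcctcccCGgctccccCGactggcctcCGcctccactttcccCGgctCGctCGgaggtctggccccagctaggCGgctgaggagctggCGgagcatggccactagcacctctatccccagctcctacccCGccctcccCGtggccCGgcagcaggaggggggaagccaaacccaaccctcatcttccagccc
Kcnip2: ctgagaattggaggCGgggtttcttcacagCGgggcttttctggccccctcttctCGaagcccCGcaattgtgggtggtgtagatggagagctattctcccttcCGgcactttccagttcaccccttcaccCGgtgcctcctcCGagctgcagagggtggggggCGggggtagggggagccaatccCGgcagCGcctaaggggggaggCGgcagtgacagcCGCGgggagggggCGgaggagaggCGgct

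The sequences held 10 CG in Kcna1, 12 in Kcnc4, 14 in Kcnj8 and 15 in Kcnip2. Over the 93 members the 250 upstream bases held a median of 10 CG, from 0 to 41, and 90 held 1 or more (96.8%). Over all autosomal protein-coding genes the median was 9, and 92.6% held 1 or more. In the 1000 bp around the start, the ratio of observed to expected CpG was 0.6 or more at 38 of 93 members (40.9%), beside 46.5% of all genes. The members were thus not richer in CpG than other genes, with medians of 0.50 and 0.56, but they were longer, with a median gene length of 28.3 kb beside 15.5 kb, and 22 spanned more than 100 kb (23.7% beside 10.6%).

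**Figure D1:**
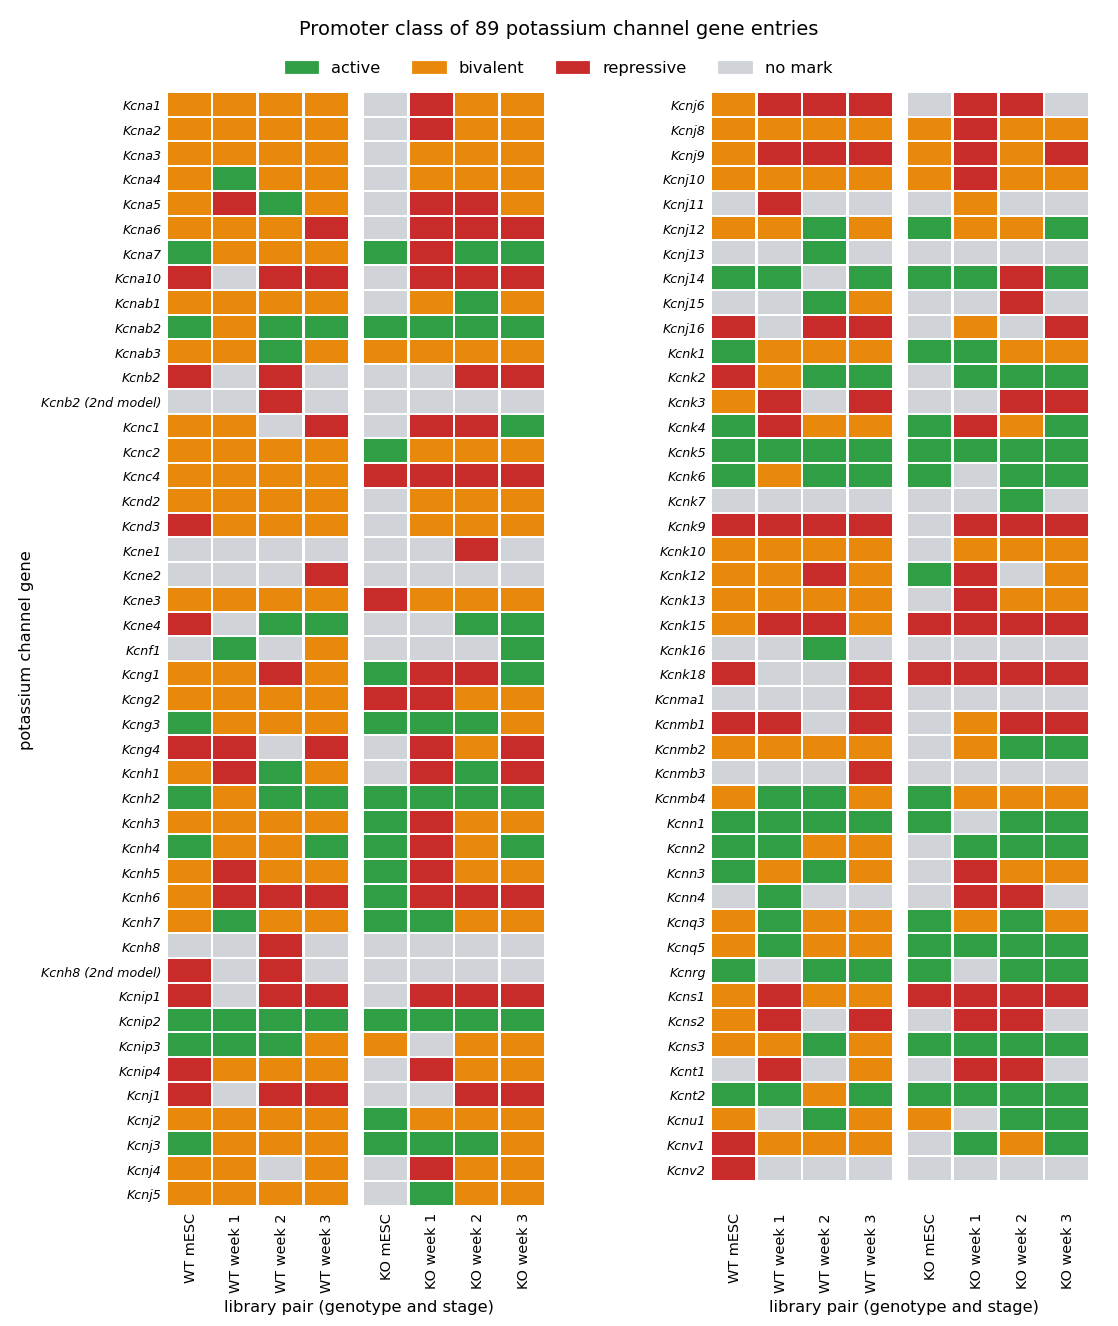
Promoter class of 89 of the 93 potassium channel gene entries (rows) in the 4 WT and the 4 KO library pairs (columns), with the class given by colour. Of all 43 members that were bivalent in WT mESC, 5 were bivalent and 18 had no mark in KO mESC, and in week 1 KO EBs 36 members were repressive.

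In WT mESC bivalent was the most frequent class of the potassium channel promoters. Both marks were present at 43 of 93 members (46.2%), beside 18.9% of all autosomal protein-coding genes. H3K4me3 alone was found at 19 (20.4%, all genes 45.3%), H3K27me3 alone at 16 (17.2%, all genes 16.9%) and no mark at 15 (16.1%, all genes 19.0%). The bivalent members included 6 of the 8 Kcna genes (Shaker-type channels), all 3 Kcns genes (silent modulatory subunits), 5 of 9 Kcnh genes (the ether-a-go-go family), 8 of 15 Kcnj genes and 5 of 14 Kcnk genes. None of the 4 Kcnn genes (calcium-activated channels) was bivalent at its annotated start, and 3 of them were active. Kcnn2 was bivalent when any coding transcript start was allowed. The 15 members with no mark in WT mESC included the second model of Kcnb2, Kcne1, Kcne2, Kcnf1, Kcnh8, Kcnj11, Kcnj13, Kcnj15, Kcnk7, Kcnk16, Kcnma1, Kcnmb3, Kcnn4 and Kcnt1, and all 15 also had none in KO mESC, as did 93.3% of all genes with no mark in WT.

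CpG-rich starts were most frequent in the bivalent class of the members, while over all genes they were most frequent in the active class. In WT mESC, 24 of 43 bivalent members had a CpG-rich start (55.8%, all bivalent genes 64.9%), as did 8 of 19 active members (42.1%, all active genes 71.3%), 4 of 16 repressive members (25%, all 7.29%) and 2 of 15 members with no mark (13.3%, all 3.83%). Among CpG-rich promoters alone, 24 of 38 members were bivalent (63.2%), beside 26.4% of all CpG-rich promoters. Among CpG-poor promoters, 19 of 55 were (34.5%), beside 12.4%. The annotated start can miss the promoter in use: when any coding transcript start was allowed, 47 members were bivalent and 7 changed class in WT mESC, among them Kcnma1, the large-conductance calcium-activated channel, which then was repressive.

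The bivalent state at these promoters was seen throughout WT differentiation. It was called at 40 members at week 1 (43.0%, all genes 15.8%), at 36 at week 2 (38.7%, all genes 14.2%) and at 51 at week 3 (54.8%, all genes 20.3%). At all 4 WT stages 17 members were bivalent (18.3%, all genes 6.08%), namely Kcna1, Kcna2, Kcna3, Kcnab1, Kcnc2, Kcnc4, Kcnd2, Kcne3, Kcng2, Kcnh3, Kcnj2, Kcnj5, Kcnj8, Kcnj10, Kcnk10, Kcnk13 and Kcnmb2. At 1 or more stages 64 were (68.8%, all genes 31.2%). Kcnip2, Kcnk5 and Kcnn1 were active at all 4 WT stages (3.23%, all genes 34.2%), Kcnk9 (a leak channel) was repressive at all 4, and Kcne1 and Kcnk7 had no mark at any.

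**Figure D2:**
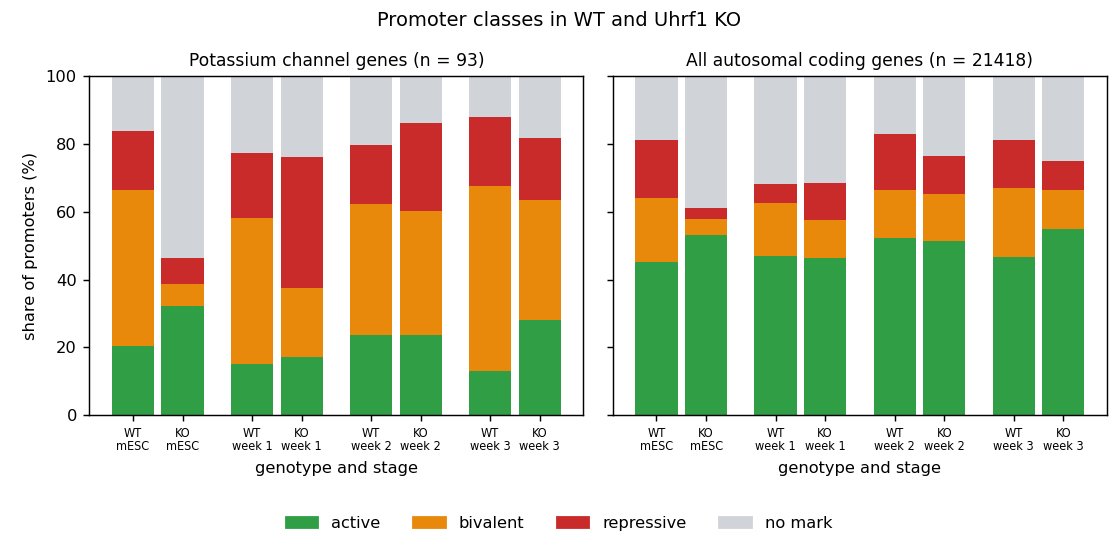
Share of promoters in each class (y axis, %) in WT and KO at mESC and EB weeks 1 to 3 (x axis), for the 93 potassium channel gene entries and for all 21418 autosomal coding genes. The bivalent share of the members fell from 46.2% in WT to 6.45% in KO mESC and from 43.0% to 20.4% at week 1, and was 38.7% and 36.6% at week 2.

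In KO mESC fewer potassium channel promoters carried H3K4me3. The mark was called at 62 members in WT (66.7%) and 36 in KO (38.7%), while over all genes it was at 64.1% and 57.8%. Of the 62 members marked in WT, 36 were marked in KO (58.1%, 95% Wilson interval 45.7 to 69.5%, which covers counting error over genes only), beside 88.1% of all genes. The WT list held 15272 H3K4me3 domains and the KO list 11509. With lists of equal number the share of members kept was 65.4%. No member without H3K4me3 in WT mESC had it in KO (0 of 31, all genes 3.66%). Of the 26 losses 24 lay at bivalent promoters: H3K4me3 was kept at 19 of the 43 bivalent members (44.2%, interval 30.4 to 58.9%), beside 75.3% of all WT bivalent promoters, and at 17 of the 19 active ones (89.5%), near the 93.4% of all WT active promoters. The exceptions among active members were Kcnn2 and Kcnn3. When any coding transcript start was allowed, Kcnn2 was bivalent in WT mESC and active in KO, so its loss depends on the annotated start.

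The 18 members that went from bivalent in WT to no mark in KO mESC (41.9% of 43, all bivalent genes 18.8%) held 6 Kcna genes (Kcna1 to Kcna6), Kcnd2 (the main A-type channel of dendrites) and the inward rectifiers Kcnj4, Kcnj5 and Kcnj6, with Kcnab1, Kcnc1, Kcnh1, Kcnk3, Kcnk10, Kcnk13, Kcnmb2 and Kcns2. Of these, Kcnj6 was active in KO mESC when any coding transcript start was allowed. A further 14 kept H3K4me3 alone (32.6%, all 60.5%), among them Kcnq3 and Kcnq5, the Kcnh genes Kcnh3, Kcnh5, Kcnh6 and Kcnh7, and Kcnj2 and Kcnj12, which make the inward rectifier current of ventricular muscle. Kcnc4, Kcne3, Kcng2, Kcnk15 and Kcns1 were among 6 that kept H3K27me3 alone (14%, all 5.88%). Both marks were called in KO at Kcnab3, Kcnj8, Kcnj9, Kcnj10 and Kcnu1.

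The members that lost H3K4me3 had weaker WT domains. In WT mESC the mean read count per bin of the 26 lost domains had a median at the 15.8th percentile of its list, from 0.2 to 65.6, and that of the 36 kept domains a median at the 47.5th, from 1.4 to 99.7, so the groups overlapped. The lost domains were 7.8 kb long at the median and the kept ones 13.7 kb. For the lost members the nearest KO domain lay 110 kb from the start at the median, and only 1 of 26 had one within 10 kb (Kcnj4, at 4.63 kb). Strength and class moved together, and their shares in the result were not tested. Among bivalent promoters whose WT domain lay below the median count of its list, 14 of 34 members kept H3K4me3 (41.2%), beside 64.2% of all such promoters. Above the median, 5 of 9 did (55.6%), beside 91.2%. Among CpG-rich bivalent promoters 12 of 24 did (50%), beside 81.3%.

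**Figure D3:**
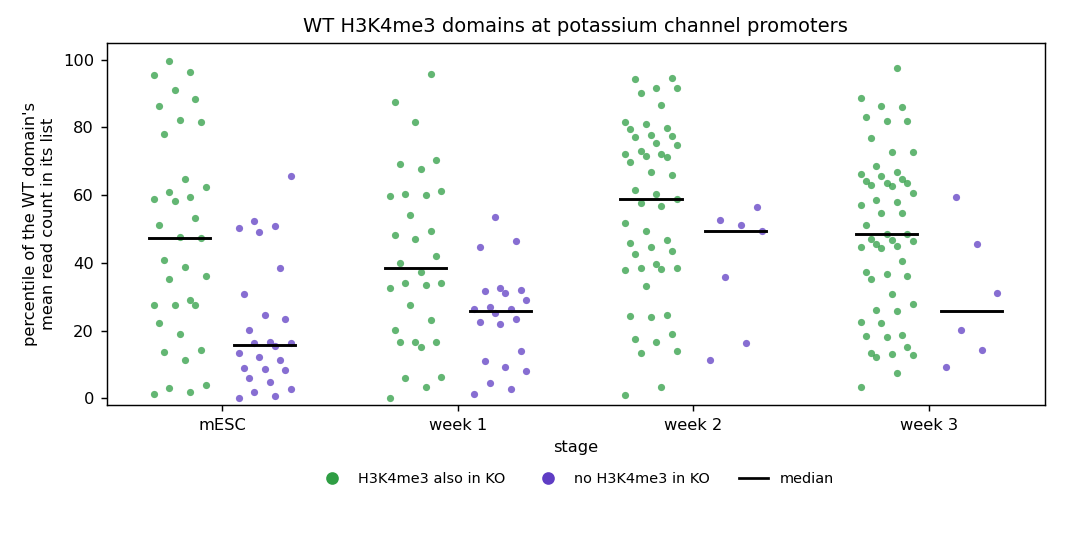
Percentile of the mean read count of each WT H3K4me3 domain within its own list (y axis) for members that also had H3K4me3 in KO (green) or did not (purple), by stage, with bars at the medians. In mESC the medians were 47.5 for the 36 kept and 15.8 for the 26 lost domains, and the points overlapped at every stage.

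At week 1, 22 members lost H3K4me3, and 17 of them carried H3K27me3 in both genotypes. H3K4me3 was called at 54 members in WT and 35 in KO, and 32 of the 54 kept it (59.3%, interval 46.0 to 71.3%), beside 90.1% of all genes. Gains were seen at 3 of 39 members without it in WT (7.69%, all genes 3.08%). The H3K4me3 lists of week 1 held 18672 domains in WT and 19041 in KO, which covered 107 and 73.4 Mb. Of the 40 bivalent members 22 kept H3K4me3 (55.0%, interval 39.8 to 69.3%), beside 75.2% of all bivalent promoters, and among bivalent promoters with a WT domain below the median count of its list 16 of 33 did (48.5%), beside 64.2%. The repressive class grew from 18 members (19.4%, all genes 5.43%) to 36 (38.7%, all genes 10.8%). The 17 members that went from bivalent to repressive (42.5% of 40, all bivalent genes 20.3%) were Kcna1, Kcna2, Kcna6, Kcna7, Kcnc1, Kcnc4, Kcng1, Kcng2, Kcnh3, Kcnh4, Kcnip4, Kcnj4, Kcnj8, Kcnj10, Kcnk12, Kcnk13 and Kcnn3. Of the other 5 losses, Kcnf1, Kcnip3 and Kcnn1 went from active and Kcnk6 from bivalent to no mark, and Kcnn4 went from active to repressive. When any coding transcript start was allowed, Kcnip3 and Kcnip4 had H3K4me3 in both genotypes at week 1. H3K4me3 was kept at 10 of 14 active members (71.4%, interval 45.4 to 88.3%), beside 95.1% of all active promoters. The lost WT domains were again the weaker ones, with medians at the 25.9th percentile for the 22 lost and the 38.5th for the 32 kept.

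At weeks 2 and 3 WT and KO shared most H3K4me3. At week 2 it was called at 58 members in WT and 56 in KO, 51 of the 58 were kept (87.9%, interval 77.1 to 94.0%, all genes 94.9%), and 5 of 35 gained it (14.3%, all genes 6.74%). At week 3 it was called at 63 and 59, 57 of the 63 were kept (90.5%, interval 80.7 to 95.6%, all genes 96.3%), and 2 of 30 gained it (6.67%, all genes 6.18%). Over all members marked in WT, the intervals of both weeks lay below the values of all genes, but they cover counting error over genes only. The class mix also differed: at week 3, 51 of the 63 marked members were bivalent, beside 4356 of 14359 marked genes. With only the better-scored domains of each list, H3K4me3 was kept at 97.6% of the marked members at week 3. At bivalent promoters it was kept at 33 of 36 members at week 2 (91.7%, all 90%) and at 45 of 51 at week 3 (88.2%, all 93.6%). The intervals of the bivalent members, 78.2 to 97.1% and 76.6 to 94.5%, held the values of all bivalent genes. At active promoters it was kept at 18 of 22 members at week 2 (81.8%, interval 61.5 to 92.7%, all 96.2%). At week 3 it was kept at 12 of 12 active members (100%, all 97.4%). In all, 39 members lost H3K4me3 in mESC or at week 1, and 30 of them carried it in KO at week 3. Of the 9 that lost it at both of these stages, Kcna1, Kcna2, Kcnc1, Kcng2, Kcnj4, Kcnk13 and Kcnn3 had it in KO at week 3, and Kcna6 and Kcnc4 did not. Genes that lost the mark early and had it in KO at week 3 were not counted over all genes.

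**Figure D4:**
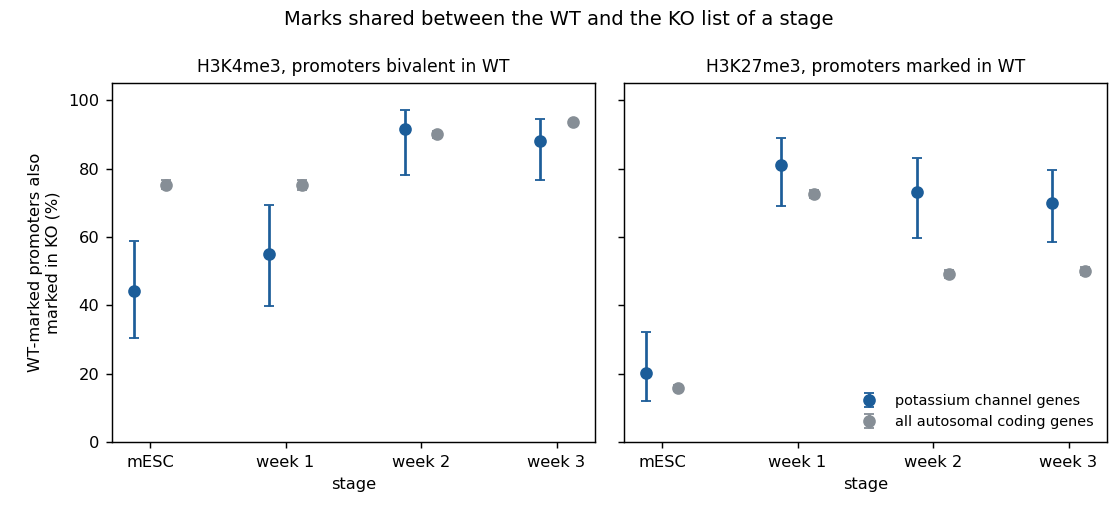
Share of WT-marked promoters also marked in KO (y axis, %) by stage, with 95% Wilson intervals over genes, for H3K4me3 at promoters bivalent in WT (left) and for H3K27me3 (right). For H3K4me3 the members stood at 44.2% beside 75.3% of all genes in mESC and at 91.7% beside 90% at week 2, and for H3K27me3 at 20.3% beside 15.8% in mESC and 70.0% beside 50% at week 3.

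The H3K27me3 lists of mESC differed in size and in read count. The KO mESC list held 722 domains and the WT list 8161, and its domains had a median mean read count of 0.914 per bin of 1500 bp, while the lowest in WT was 3.04 per bin of 1800 bp. The mark was called at 59 members in WT mESC and 13 in KO, and 12 of the 59 were kept (20.3%, interval 12 to 32.3%), beside 15.8% of all genes. It was new in KO at 1 of 34 (2.94%, all genes 3.52%), which was Kcnip3. When any coding transcript start was allowed, Kcnip3 was bivalent in WT mESC too, so this gain depends on the annotated start. At the 13 KO promoters the mean counts ran from 0.062 per bin (Kcnk18) to 1.81 (Kcnc4), so with the lowest WT count as a minimum, chosen after the data were seen, none of the 59 remained. Every class of KO mESC that turns on this mark, such as active in place of bivalent, has the same limit, and a lost mark and the low read counts of that list cannot be told apart there.

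In EBs the members carried H3K27me3 in more cases than other genes. At week 1 it was at 58 members in WT (62.4%, all genes 21.2%) and 55 in KO (59.1%, all genes 22.0%). It was kept at 47 of 58 (81.0%, interval 69.1 to 89.1%, all genes 72.6%) and new at 8 of 35 (22.9%, all genes 8.32%). At week 2 it was kept at 38 of 52 (73.1%, interval 59.7 to 83.2%, all genes 49.1%) and new in KO at 20 of 41 (48.8%, all genes 14.4%), among them Kcna5, Kcnc1, Kcne1, Kcnmb1, Kcnmb4 and Kcnt1. At week 3 it was kept at 49 of 70 (70.0%, interval 58.5 to 79.5%, all genes 50%) and new at 1 of 23 (4.35%, all genes 4.57%). With only the better-scored domains of each list the week 2 share was 55.9%, and with the lowest WT mean count as a minimum in KO the week 3 share was 14.3%, since the KO list of week 3 had a median of 5.14 per bin and the lowest WT count was 6.34.

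Bivalency itself was kept at 5 of 43 members in mESC (11.6%, all genes 14.8%), 13 of 40 at week 1 (32.5%, all genes 51.1%), 24 of 36 at week 2 (66.7%, all genes 54.9%) and 33 of 51 at week 3 (64.7%, all genes 46.9%). The week 2 share was 36.8% with only the better-scored domains of each list, and with the lowest WT mean count as a minimum in KO the shares were 0% in mESC and 13.7% at week 3, so these values depend on which domains are counted. In KO it was called at 6 members in mESC (6.45%, all genes 4.48%), 19 at week 1 (20.4%, all genes 11.1%), 34 at week 2 (36.6%, all genes 14%) and 33 at week 3 (35.5%, all genes 11.8%). None of the 17 members bivalent at every WT stage was bivalent at every KO stage, and 11.7% of all such genes were. Of these 17, 8 were bivalent at 3 KO stages (47.1%, all such genes 41.7%), namely Kcna3, Kcnc2, Kcnd2, Kcne3, Kcnj2, Kcnj8, Kcnj10 and Kcnk10. A further 7 were at 2 (41.2%, all 26.0%), Kcnmb2 was at 1 (5.88%, all 12.7%) and Kcnc4 at none (5.88%, all 7.90%). Kcnab3, an accessory subunit of Shaker-type channels, was the 1 member bivalent at all 4 KO stages (1.08%, all genes 1.15%).

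**Figure D5:**
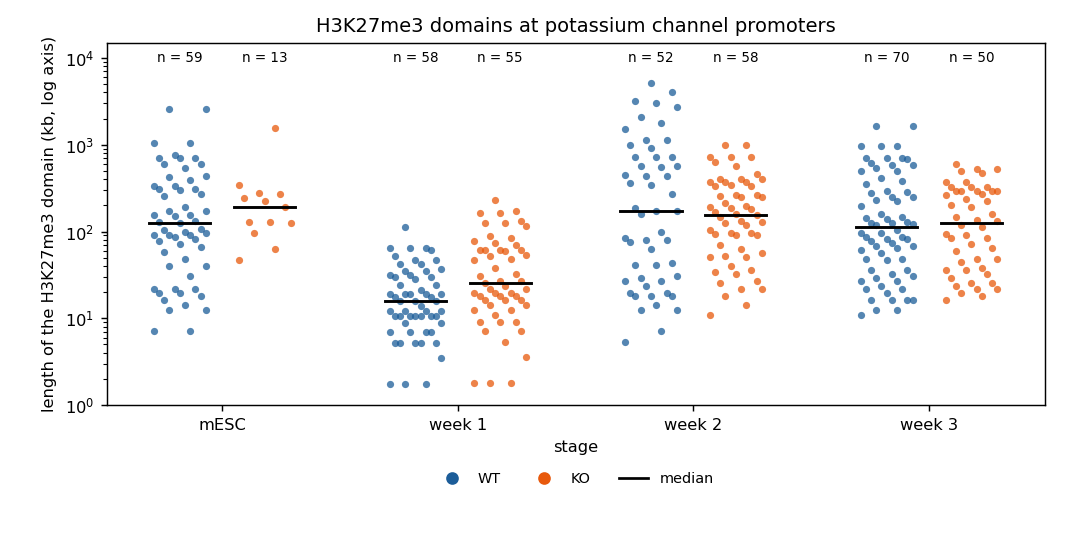
Length of the longest H3K27me3 domain at each marked member promoter (y axis, kb, log axis) in WT and KO by stage, with bars at the medians and the number of marked members above. Medians ran from 15.8 kb in WT at week 1 to 192 kb in KO mESC, and single domains reached 5143 kb in WT at week 2.

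The H3K27me3 domains were short at week 1 and long at the other stages in both genotypes. In WT the median domain at a marked member was 124 kb in mESC and then 15.8, 171 and 112 kb at weeks 1, 2 and 3, and in KO it was 192, 25.2, 155 and 125 kb. The whole lists also had their shortest domains at week 1. Their medians were 61.2, 8.75, 64.8 and 46.8 kb in WT and 41.2, 16.2, 63 and 72 kb in KO. Domains longer than 500 kb held 11 of 59 marked members in WT mESC, none of 58 at week 1, 18 of 52 at week 2 and 13 of 70 at week 3. In KO they held 1 of 13, 0 of 55, 7 of 58 and 4 of 50. The share over all genes was not counted, and the calls in such domains cover whole neighbourhoods. The 59 marked members of WT mESC lay in 52 different domains. Kcnj2 and Kcnj16 lay in 1 domain of 2551 kb on chromosome 11, the longest at any member in WT mESC, and Kcnj1 and Kcnj5 in 1 of 1039 kb on chromosome 9. Kcna1 and Kcna6 shared 1 of 153 kb on chromosome 6. Members that share a domain are not independent. H3K27me3 covered 52.4% of the members' gene bodies in WT mESC and 7.6%, 65.5% and 54.7% in WT EBs of weeks 1, 2 and 3, beside 27.9%, 4.28%, 29.3% and 23.9% over all genes. In KO it covered 2.92%, 14.7%, 31.2% and 21.1% of the members, beside 3.42%, 8.35%, 17.4% and 13.4%.

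H3K4me3 domains were shorter and seldom shared. In WT mESC the 62 marked members lay in 61 domains with a median of 9.1 kb, the median of the whole list, and with counts at a median percentile of 28.4. The longest were 192 kb at Kcnn1, and 98.8 kb each at Kcnh4 and Kcnj14, 3 genes that were active in WT mESC. In KO mESC the domain at Kcnn1 was 19.5 kb long and began 1.49 kb from the start, at week 1 the nearest lay 5.69 kb away, and at week 3 it was 32 kb beside 58.4 kb in WT. The domain at Kcnh4 was 97.5 kb in KO mESC and at Kcnj14 66.3 kb. Bins were 1300 bp in both mESC lists and 350 or 400 bp in EBs, so lengths compare within a stage only.

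Kcnc4 was the only member with 1 class at all WT stages and another at all KO stages. Its H3K4me3 domain in WT was 10.4 kb in mESC and then 0.8, 0.8 and 1.2 kb in EBs, with mean counts at percentiles 0.8, 28.9, 56.4 and 31.1 of their lists. In KO the nearest H3K4me3 domain lay 102, 123, 60.1 and 101 kb away. In EBs the WT call thus rested on 2 or 3 bins up to 1.39 kb from the start. Its H3K27me3 domain was 270, 112, 268 and 277 kb long in WT and 279, 162, 265 and 160 kb in KO. A long H3K27me3 domain was thus called in all 8 lists, and only the small H3K4me3 domain was in the WT lists alone. The H3K27me3 call in KO mESC had a mean count below the lowest of the WT mESC list.

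Kcnmb2, an accessory subunit of large-conductance channels, differed mainly in H3K27me3. Its H3K4me3 domain was 3.9, 3.2, 3.6 and 2.8 kb in WT, absent in KO mESC with the nearest at 455 kb, and 1.4, 2.1 and 2.8 kb in KO EBs. Its H3K27me3 domain was 7.2, 5.25, 99 and 16.2 kb in WT and 3.6 kb at week 1 in KO, with none at its promoter in KO mESC or at weeks 2 and 3. The KO class was therefore no mark, bivalent, active and active.

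Beyond Kcnc4, 13 members had H3K4me3 in WT and none in KO at 2 or more stages, and no member showed the reverse at more than 1 stage. The same counts were not made over all genes, so they are not shown to be particular to the members. At Kcna1 the domain was 9.1, 6.8, 4 and 8 kb in WT, and in KO there was none in mESC or week 1, with the nearest 198 and 200 kb away, then 2.1 and 3.6 kb. At Kcna2, another axonal channel, it was 3.9, 3.2, 3.6 and 5.2 kb in WT, and in KO the nearest lay 171 and 60.3 kb away and then domains of 3.15 and 3.6 kb were called. Both thus had the WT mark at every stage and the KO mark at the last 2 stages alone, at H3K27me3 domains that were called in all lists but KO mESC. Kcna6 had domains of 19.5, 2.4 and 2 kb in WT up to week 2, the first at the 0.2th percentile of counts, and none in KO at any stage.

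In H3K4me3, Kcnk13 and Kcnn3 followed Kcna1 and Kcna2, but Kcnn3 had no H3K27me3 call in WT mESC or in WT at week 2. At Kcnk13, a leak channel, the H3K4me3 domain was 19.5, 3.2, 4.8 and 4.4 kb in WT and 3.85 and 8 kb in KO at weeks 2 and 3. At Kcnn3 it was 7.8, 4.8, 4.4 and 11.6 kb in WT and 9.8 and 5.2 kb in KO at weeks 2 and 3. At the silent subunit Kcng2 it was 5.2, 3.2, 1.6 and 2.4 kb in WT and 0.35 and 3.6 kb in KO at those weeks. In mESC and at week 1 the nearest KO domain to these 3 starts lay between 35.1 kb (Kcng2, week 1) and 77.9 kb (Kcnk13, week 1) away.

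Kcnj4, Kcnk15 and Kcns1 differed from these. At the inward rectifier Kcnj4 the WT domain was 18.2 kb in mESC, 15.2 kb at week 1 and 18.4 kb at week 3, and the KO domain was 3.15 kb at week 2 and 16.8 kb at week 3, so it also gained the mark at week 2. Kcnk15, a member of the Kcnk family, had 15.6 kb in WT mESC and 0.4 kb, a single bin, at week 3, and none in KO. Kcns1 had 6.5, 2 and 1.6 kb in WT mESC and at weeks 2 and 3, and none in KO at any stage, with the nearest at 91.5, 92.5, 91.8 and 32.4 kb. Kcna5, Kcnc1, Kcnh1 and Kcnj15 make up the 14. A gain in KO was seen at 1 stage each for 10 members, among them Kcnc1, Kcng4, Kcnj4, Kcnj9, Kcnj11, Kcnj16, Kcnk7 and Kcnmb1, in domains of 0.35 kb (Kcnj11 and Kcnj16) to 4.2 kb (Kcng4). Such gains were not counted over all genes.

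The 5 members bivalent in both genotypes in mESC differed in the strength of their H3K4me3 domains. At Kcnab3 the domain was 31.2 kb in WT and 27.3 kb in KO, and at Kcnu1 (a sperm potassium channel) 16.9 and 19.5 kb, with WT counts at percentiles 90.9 and 96.4. Both have the start of another gene within 5 kb, Trappc1 at 2278 bp from Kcnab3 and Ash2l at 1929 bp from Kcnu1, so their windows also hold that promoter. Kcnj9 and Kcnj10, inward rectifiers of neurons and glia that are neighbours on chromosome 1, shared 1 domain of 35.1 kb in WT and 45.5 kb in KO, with counts at percentiles 27.6 and 2.1. At Kcnj8 it was 7.8 and 6.5 kb, at percentiles 47.2 and 27.4, and so no longer than the lost domains at the median. H3K27me3 at these promoters was 66.6 kb (Kcnab3), 39.6 kb (Kcnu1), 12.6 kb (Kcnj9 and Kcnj10) and 173 kb (Kcnj8) in WT, and in KO the calls had mean counts of 1.56, 0.703, 0.672 and 0.0953 per bin.

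Among 13 members with known roles in heart muscle or vessels, 7 were bivalent in WT mESC (53.8%, all genes 18.9%). In WT mESC 10 carried H3K4me3, of which 6 kept it in KO (60.0%, all genes 88.1%). At week 1 it was kept at 8 of 9 (all genes 90.1%), at week 2 at 9 of 10 (all genes 94.9%) and at week 3 at 10 of 10 (all genes 96.3%). Kcnj3 and Kcnj5 encode the acetylcholine-gated channel of the atrium. At Kcnj3 the H3K4me3 domain was 10.4, 5.6, 7.2 and 5.6 kb in WT and 13, 4.2, 4.9 and 5.6 kb in KO, while at Kcnj5 it was 2.6, 8, 5.2 and 4.4 kb in WT and absent, 7.35, 5.6 and 3.6 kb in KO. Kcnh2, the rapid delayed rectifier of the heart, had 41.6, 10.8, 12 and 12.8 kb in WT and 6.5, 9.8, 9.45 and 11.2 kb in KO, and H3K27me3 in the WT week 1 list alone. Kcnip2 was active in all 8 lists and Kcnj2 carried H3K4me3 in all 8, with counts between the 60.9th and the 98.5th percentile at Kcnj2. Kcnd3 gained H3K4me3 from week 1 in both genotypes, and Kcne1 and Kcnj11 had no H3K4me3 in WT.

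The neuronal list held 15 channel genes, with 16 entries since Kcnb2 has a second model. In WT mESC 10 entries carried H3K4me3 and 3 of these kept it in KO (all genes 88.1%), among them Kcnq3. Kcnj6 and Kcnn2 also kept it when any coding transcript start was allowed. All 10 with H3K27me3 in WT mESC lacked it in KO, as did 7 of 8 of the heart and vessel genes, and over all genes 15.8% kept it. At week 1 H3K4me3 was kept at 5 of 8 and H3K27me3 at 10 of 10, at week 2 at 7 of 7 and 9 of 12, and at week 3 at 8 of 9 and 7 of 14. At Kcnd2, which is in both lists, the H3K4me3 domain was 9.1, 5.2, 5.6 and 2.4 kb in WT and absent, 1.05, 2.45 and 2.8 kb in KO, and the H3K27me3 domain 108, 10.5, 3204 and 55.8 kb in WT and absent, 18, 34.2 and 91.8 kb in KO. The lists were small and share Kcnd2, and the difference between them was not tested.

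Other channel genes were measured the same way. Of 15 partner genes of potassium channels and of the pacemaker family, 8 carried H3K4me3 in WT mESC and 4 of them in KO, with 5 of 8 kept at week 1 and 10 of 11 at week 3. Hcn4, a pacemaker channel, was bivalent at all 4 WT stages. Of 15 autosomal sodium channel (Scn) gene entries 7 carried H3K4me3 in WT mESC and 5 of these in KO (71.4%), and 4 of 7 kept it at week 1. Of 25 calcium channel (Cacn) genes 14 carried it and 8 kept it (57.1%), and 13 of 15 kept it at week 1 (86.7%). Over all genes H3K4me3 was kept at 88.1% in mESC, 90.1% at week 1 and 96.3% at week 3. In WT mESC 4 Scn entries and 9 Cacn genes were bivalent (26.7% and 36.0%), beside 46.2% of the potassium channel genes.

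Marker genes differed between lists and stages. Of 6 stem cell markers, Pou5f1, Nanog, Sox2, Zfp42 and Tdgf1 carried H3K4me3 in WT and in KO mESC, and Esrrb did not at its annotated start. At week 1 it was at 4 of 6 in WT and 1 of 6 in KO (Sox2), and at weeks 2 and 3 at 5 of 6 in both. Of 6 cardiac markers it was at 2 in WT mESC, 0 in KO mESC, 6 in both genotypes at week 1, 4 in both at week 2, and 4 in WT and 3 in KO at week 3. Of 4 neural markers (Neurod1, Nes, Pax6 and Tubb3) it was at 4 in WT mESC and 3 in KO, and at week 1 at 4 in WT and 1 in KO. At weeks 2 and 3 all 4 neural markers had it in both genotypes. At week 1, where 22 members lost H3K4me3, Pou5f1, Tdgf1 and Zfp42 of the stem cell markers and Neurod1, Pax6 and Tubb3 of the neural markers thus had it in WT alone, while the cardiac markers had it in both genotypes. The part of such differences in the result was not tested. A promoter mark does not count cells, and a change in cell makeup and a change in each cell cannot be told apart in bulk EBs.

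H3K9me3 was no more frequent at these promoters than elsewhere. It lay within 5 kb of 23 members in WT mESC (24.7%, interval 17.1 to 34.4%, all genes 30.9%) and of 24 in KO (25.8%, interval 18 to 35.5%, all genes 41.9%), with 14 in both. The mark was kept at 14 of 23 (60.9%, all genes 74.9%) and new at 10 of 70 (14.3%, all genes 27.1%). With lists of equal number the WT share was 10.8% and the KO share 25.8%, so the near equality of the shares depends on the list sizes. The KO calls came in longer domains, with a median at marked members of 1491 kb beside 54 kb in WT, and of 140 kb beside 37.8 kb over the whole lists. Members that share a domain are counted once each in the first pair of medians. A single KO domain of 26415 kb on chromosome 11 held Kcnh4, Kcnh6, Kcnj2 and Kcnj16. The 10 members marked in KO alone were Kcng3, Kcnh4, Kcnh6, Kcnh8 with its second model, Kcnj3, Kcnj13, Kcnk12, Kcnmb3 and Kcnrg, in domains of 79.2 kb (Kcnmb3) to 26415 kb. Among them Kcnj3 lay in a domain of 2113 kb, Kcnk12 in one of 1049 kb and the second model of Kcnh8 in one of 626 kb. The 9 marked in WT alone were Kcna3, Kcnab1, Kcne4, Kcng2, Kcnip4, Kcnk6, Kcnk13, Kcnk16 and Kcnv1. Over the gene bodies H3K9me3 covered 30.7% of the members' length in WT and 29.8% in KO, and over all genes 26.9% and 36.6%.

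Uhrf1 windows lay at few of the promoters. Of 93 members 1 had a window within 5 kb of its start (1.08%, interval 0.19 to 5.84%), beside 5.67% of all genes. With any coding transcript start allowed, 3 of 93 had one (3.23%). At the annotated start it was Kcnb2, a neuronal delayed rectifier, with the window at chr1:15300001-15310000 (mm9) overlapping an exon, in a WT H3K27me3 domain and outside H3K4me3 and H3K9me3 domains. On the gene bodies there were 26 windows of 10 kb at 13 members, of which 24 lay in introns alone and 2 over an exon. They covered 2.73% of the members' length, beside 2.83% over all genes. Kcnh7 held 4 windows within its 491 kb, and Kcnb2, Kcnip4 and Kcnn2 held 3 each. Of the 26 windows, 15 touched a WT H3K9me3 domain, 17 a WT H3K27me3 domain and none a WT H3K4me3 domain. These overlaps were not counted over all Uhrf1 windows.

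Summits of the pluripotency factors lay within 5 kb of few members in WT. Oct4 was there at 6 of 93 (6.45%, all genes 8.31%), Sox2 at 4 (4.30%, all genes 6.83%) and Nanog at 1 (1.08%, all genes 1.41%). In KO, Oct4 was at none (all genes 0.219%), Sox2 at 22 (23.7%, all genes 32.4%) and Nanog at 3 (3.23%, all genes 5.90%). The lists differed in size in the same direction, with 12898 and 576 summits for Oct4, 5190 and 20755 for Sox2 and 2390 and 10632 for Nanog, in WT and KO. Kcnh8 was the only member with all 3 factors in WT, in an intron 3245 to 3257 bp after its start, and with Sox2 and Nanog at that site in KO. Oct4 also lay in an intron of Kcnk5 (3102 bp after the start) and upstream of Kcnrg (position -4247 bp from the start), Kcnt2 (-510 bp) and Kcnu1 (-1776 bp), and at these 4 sites a KO Sox2 summit lay nearby. Other WT Sox2 summits were at Kcng2 and Kcnu1, and Kcnj8 had a Nanog summit in KO alone, at -647 bp.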

How the data were processed

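Per the labels and the study's methods, the authors mapped reads to mm9 with Bowtie2 2.1.0, called domains of H3K4me3, H3K27me3 and H3K9me3 with RSEG against input, factor summits with MACS, and Uhrf1 windows by their ratio of ChIP to input reads. The deposited domain lists give a signal made by the authors' domain caller, namely the reads per bin averaged over the domain, and a domain score by the authors that grows with the number of bins. Deposited summits carry a height in reads as signal. The deposited Uhrf1 list gives windows alone. The methods say that ChIP-seq counts were normalised to the mapped reads, but whether this covers the counts in the domain lists is not given in the sources used here. Library depths were not used here, and bins differ between lists. None of the lists went past a chromosome end (0 of 530 list and chromosome pairs).

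From these lists each gene start was classed by overlap of 1 bp or more, with Python 3.11.15, numpy 2.4.6, scipy 1.17.1 and matplotlib 3.10.9. The scripts were tested on simulated data. The study itself classed promoters from reads in ChIP against input, which was not done here. Shares have 95% Wilson intervals. The members, gene lists and rules were chosen with earlier results of these data known. Named were members bivalent in both genotypes in mESC, with 1 WT class and another KO class at 3 or more stages, with H3K4me3 in WT alone at 2 or more stages (the 10 longest), with the longest domains, with Uhrf1 windows, and with H3K9me3 in 1 genotype (the 5 longest). The rule's domain length could not be applied to summits, so members were named from those with a WT summit, and Kcnj8, after their values were seen. Map2 and Sox1 did not match by name, leaving 4 of 6 neural markers. Some members are counted in the totals but are not reported here by name. Alternatives tried were other windows, starts, coverage, scores and list sizes.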

Additional observations from a re-analysis of the deposited data

Results flagged for a closer look

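The sign of KO minus WT differed between stages for 3 counts of potassium channel promoters, and with 1 library per group the difference between stages was not tested. The number of members with H3K27me3 changed by -46 in mESC and in EBs by -3 (week 1), 6 (week 2) and -20 (week 3), while over all genes the share went from 35.7% in WT to 7.90% in KO mESC, 21.2 to 22.0% at week 1, 30.9 to 25.1% at week 2 and 34.6 to 20.3% at week 3. The number of repressive members changed by -9 in mESC and in EBs by 18 (week 1), 8 (week 2) and -2 (week 3), and the share of all genes went from 16.9 to 3.43%, 5.43 to 10.8%, 16.7 to 11.2% and 14.2 to 8.54%. The number with no mark changed by 35 in mESC and in EBs by 1 (week 1), -6 (week 2) and 6 (week 3), and the share of all genes went from 19.0 to 38.8%, 31.8 to 31.5%, 16.9 to 23.6% and 18.7 to 24.9%. Over all genes the sign also differed between stages for all 3 counts. The mESC values rest on the KO list of 722 H3K27me3 domains.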

How the results depend on the processing

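Of 103 alternative values for the shares kept and for H3K9me3 and Uhrf1, 89 stayed within the 95% interval of the reported share. The other 14 were as follows, each as a share of members, and the cause was not tested. With the better-scored domains of each list alone, H3K4me3 kept at week 3 was 97.6%, H3K27me3 kept at week 2 was 55.9% and bivalency kept at week 2 was 36.8%. With 1 kb windows bivalency kept in mESC was 4.88%. With 50% of the window covered, H3K4me3 kept at week 1 was 42.6% and bivalency 19.4%. With lists of equal number, H3K27me3 kept was 10.5% in mESC and 79.6% at week 3, bivalency kept in mESC was 0%, and H3K9me3 in WT was 10.8%. With the lowest WT mean count as a minimum for KO H3K27me3 domains, H3K27me3 kept was 0% in mESC and 14.3% at week 3, and bivalency kept was 0% and 13.7%. This last setting and the removal of 6 members near another gene's start were chosen after seeing the data. No replicate could be left out, since each group had 1 library. No paired analysis was possible because the result comes from no test.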
